A study of Mus musculus with 9 samples.

Results

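This account covers the first 12 hours of mouse embryonic stem (ES) cell differentiation, from 3 of the 9 arrays of the series. Of these, 2 came from cells at day 0.5 of differentiation (D0.5), 1 with doxycycline at 1 µg/ml (D0.5 Dox+) and 1 without it (D0.5 Dox-), and they were set against 1 array of undifferentiated ES cells. Both D0.5 samples were in MEM alpha with 10% fetal bovine serum (FBS), a medium for which the labels list no leukemia inhibitory factor (LIF). The undifferentiated cells were kept in GMEM with 10% KnockOut Serum Replacement (KSR), 1% FBS, LIF at 2000 units/mL and doxycycline at 1 µg/ml. Loss of LIF, more serum, loss of KSR and the change of basal medium therefore came together, and in D0.5 Dox- the loss of doxycycline as well, and their parts cannot be told apart. The cells carry a constitutively active PKA (protein kinase A) under the control of doxycycline, and the labels used here do not say which medium switches it on. The ES line is not named in the labels, and nothing says whether the 2 D0.5 arrays came from separate cultures.

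LIF keeps mouse ES cells in the naive state of pluripotency, which resembles the epiblast of the blastocyst before implantation. It binds the receptor pair LIFR and gp130, the JAK kinases then phosphorylate the transcription factor STAT3, and STAT3 activates its own inhibitor Socs3 and factors of the naive network such as Klf4 and Tfcp2l1. Without LIF, and with FGF and ERK signalling left to act, the cells leave this state, pass through a formative state that resembles the epiblast after implantation, marked by Otx2, Pou3f1 and the de novo DNA methyltransferases, and become able to form the germ layers.

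The brightest probe set with 1 symbol stood for each gene, and the 8717 genes that reached a signal of 50 on 2 or more of the 9 arrays were tested. Signals are on a linear scale with an average of 100 on every array, and differences are D0.5 minus ES after log2(signal + 16). The added 16 makes the change of a dim gene look smaller than it is. Over the series, 41.6% to 44.2% of genes per array reached a signal of 50. Actb's ratio of 3' to 5' signal, which reflects RNA integrity, was 1.70 and 1.74 on the D0.5 Dox+ and Dox- arrays and 1.60 on the ES array. Arrays have no depth, and their number limits the precision of every value.

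The 4 genes chosen as marks of this interval all moved on both D0.5 arrays. Socs3, the STAT3-induced inhibitor of JAK signalling, had a signal of 158 in D0.5 Dox+ and 149 in D0.5 Dox-, against 1824 in ES cells. Fos, a subunit of the AP-1 factor, read 24.7 and 34.7 in D0.5 cells, against 239 in ES cells. Both were far lower in D0.5 cells on either medium. Lef1, a DNA-binding partner of beta-catenin in Wnt signalling, read 602 and 784 in D0.5 cells, against 82.6 in ES cells. Otx2, a homeodomain factor of the post-implantation epiblast, read 1031 and 1116 in D0.5 cells, against 162 in ES cells. For both the D0.5 arrays lay several-fold above the ES array. These genes were chosen with earlier results of these data known, so their values here are a description.

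Across all genes the change within 12 hours was larger than the gap between the media. The difference between the D0.5 arrays had a standard deviation (SD) of 0.202 over the 8717 genes, against 0.389 for the mean D0.5 minus ES difference. At least 2-fold apart from ES cells on both D0.5 arrays were 180 genes, which is 2.06% of those tested, with 100 higher (1.15%) and 80 lower (0.918%) in D0.5 cells. By contrast 10 genes (0.115%) were 2-fold apart between the D0.5 arrays. The split of 100 to 80 depends on the signal filter, which a gene bright only on the ES array cannot pass. It left out 51 genes that were at least 2-fold lower on both D0.5 arrays and 4 that were higher. With a filter added after the data were seen, which asks for a signal of 50 on the ES array or on both D0.5 arrays, 86 genes were higher and 122 lower.

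The linear model of limma, with the D0.5 arrays as 1 group, called 1159 genes (13.3%) at an adjusted p under 0.05, of which 656 were higher (7.53%) and 503 lower (5.77%) in D0.5 cells. In this fit the spread comes from the 2 D0.5 arrays alone, moderated across genes, and the single ES array is assumed to vary as they do. The p-values thus measure only the spread between arrays of 2 media, which may be technical. The number of calls rests on that choice. With the spread taken from a fit of all 9 arrays 0 genes passed in limma, though 733 had an unadjusted p under 0.05, and without the signal filter 0 passed in limma, with 2444 at an unadjusted p under 0.05. The fit of all 9 arrays has terms for day and medium, so its spread also holds differences between media that change with the day. Below, "rose" and "fell" mean called in the fit of 3 arrays, and each p is its Benjamini-Hochberg adjusted p over all 8717 genes.

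**Figure D1:**
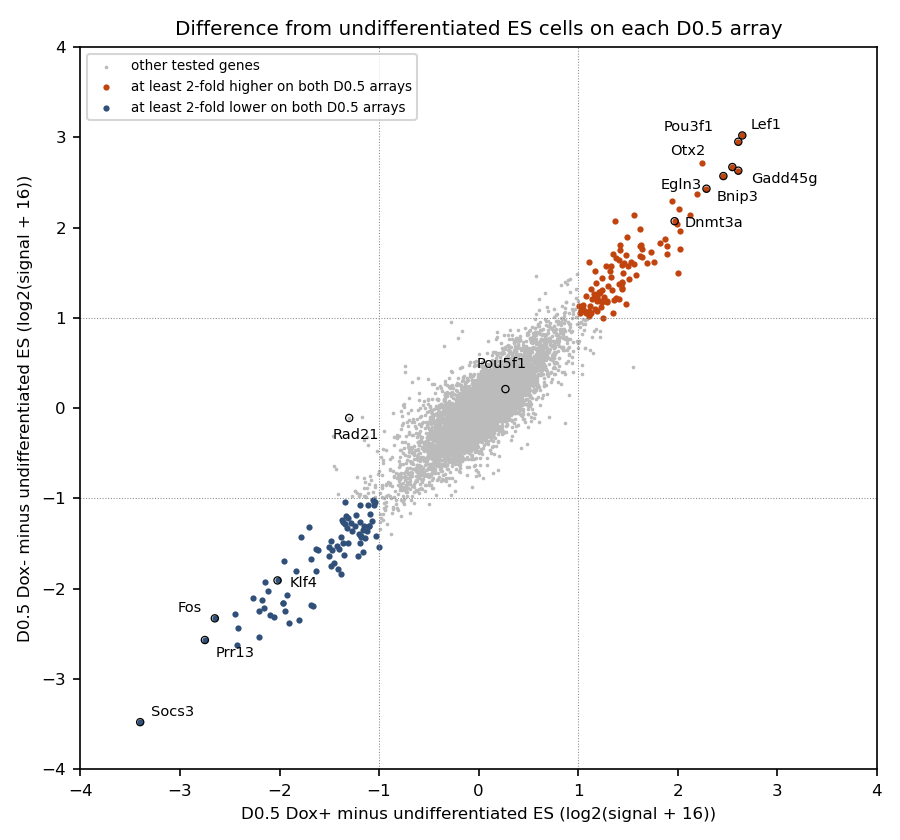
Difference from undifferentiated ES cells on the D0.5 Dox+ array (x axis) and the D0.5 Dox- array (y axis), both on the log2(signal + 16) scale, with 1 point for each of the 8717 tested genes and dotted lines at 2-fold. Genes lie along the diagonal, with 100 higher and 80 lower by 2-fold or more on both arrays, and Rad21 is marked as one of the 10 genes on which the D0.5 arrays differ by more than 2-fold.

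Of 17 tested genes of the LIF and STAT3 pathway, 8 fell, 0 rose and 9 were not called. The called share was 47.1%, against 13.3% of all tested genes. Socs3, Icam1, Klf4, Klf5, Tfcp2l1, Gbx2, Pim3 and Stat3 fell, while the receptor genes Lifr and Il6st and the kinases Jak1 and Jak2 were not called. Of the 8 genes that fell 7 were at least 2-fold lower on both arrays. The median difference of the 17 genes was -0.26, against 0.02 over all tested genes. A further 5 listed members did not pass the signal filter. Because the ES and D0.5 samples are bulk RNA, fewer cells that express a gene and less RNA per cell cannot be told apart, here and for every gene that follows.

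Of all tested genes, Socs3 differed most from ES cells. It fell by 3.44 ± 0.139 (SE, n = 2 D0.5 arrays and 1 ES array; limma adjusted p = 1.87e-14), to 8.41% of its ES signal. Another, dimmer Socs3 probe set gave -2.78. Icam1, a cell adhesion molecule induced by cytokines, read 95.7 and 99.6 in D0.5 cells, against 490.2 in ES cells. Klf4, a zinc-finger factor of the naive network and a STAT3 target, read 723 and 783 in D0.5 cells, against 2989 in ES cells (difference -1.97 ± 0.13, limma adjusted p = 9.53e-11). In all of these the media gave nearly the same value and the ES array stood alone. Tfcp2l1, a further STAT3 target of that network, kept 21% of its ES signal, and Klf5, a factor related to Klf4, kept 29.1%. The second probe set of Klf5 had a smaller difference, at -0.59. Pim3, a serine and threonine kinase, kept 42.1% of its ES signal.

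Stat3 itself read 50.6 and 52.4 in D0.5 cells, against 140.0 in ES cells, and fell by 1.21 ± 0.179 (limma adjusted p = 2.86e-05). Its dimmer probe set gave -1.70. The level of the transcription factor's own mRNA was thus lower in D0.5 cells on both probe sets. Lifr, the LIF receptor, read 806 and 919.8 in D0.5 cells, against 944 in ES cells (limma adjusted p = 0.593). Il6st, which encodes gp130, read 189 and 138 in D0.5 cells, against 154 in ES cells (limma adjusted p = 0.86), and Jak1 differed by 0.11 (limma adjusted p = 0.746). For these genes the ES value lay within or close to the D0.5 values. Socs2, another gene of the SOCS family, differed by only 0.10, and Pim1, a kinase related to Pim3, by -0.16, and neither was called.

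Promoter sequences are printed for 5 named genes, to show where a searched motif lies. RefSeq's promoters (build GRCm38.p6) were searched over the 250 bases before the start site for 6 motifs on both strands, and these 5 were picked, among genes that fell on the LIF list or rose on the hypoxia list, because a match was found. The STAT motif TTCNNNGAA, its own reverse complement, was found in Socs3, 154 bases before the start, and in Icam1, 42 bases before it. It is in capitals here, in Socs3 (chr11:117969367-117969616, minus strand) and Icam1 (chr9:21015690-21015939, plus strand).
Socs3: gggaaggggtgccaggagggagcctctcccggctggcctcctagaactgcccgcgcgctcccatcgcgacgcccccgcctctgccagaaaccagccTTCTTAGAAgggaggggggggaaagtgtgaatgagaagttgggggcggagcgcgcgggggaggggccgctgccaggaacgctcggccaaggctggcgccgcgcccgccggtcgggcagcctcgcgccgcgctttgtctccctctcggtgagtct
Icam1: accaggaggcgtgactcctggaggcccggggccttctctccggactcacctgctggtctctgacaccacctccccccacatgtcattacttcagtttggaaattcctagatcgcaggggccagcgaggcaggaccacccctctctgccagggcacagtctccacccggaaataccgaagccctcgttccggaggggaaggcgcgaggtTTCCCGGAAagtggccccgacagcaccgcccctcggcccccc
The motif was in 5 of the 59 genes with a listed promoter among the 80 that were 2-fold lower (8.47%), in 4 of 78 such genes among the 100 that were higher (5.13%) and in 8.13% of all 27025 genes with a promoter. The share among the lower genes was thus near the share in all genes with a promoter, whether tested here or not. Of the other motifs, the stricter STAT form TTCCNGGAA, which overlaps the first, was in 2 of 59 lower and 1 of 78 higher genes against 1.09% of all, and the cyclic AMP response element TGACGTCA in 1 of 59 and 0 of 78 against 1.77%. The TCF and LEF motif, CTTTGAA or CTTTGAT, was in 3 of 59 lower and 7 of 78 higher genes against 8.63% of all, and the CArG box of serum response factor in 0 of 59 and 3 of 78 against 1.62%. A match describes the letters and is not evidence of binding.

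Most of the naive pluripotency network fell. Of its 24 tested genes, 15 fell and 2 rose, 9 were at least 2-fold lower on both arrays, and the median difference was -0.77. In all 70.8% were called, against 13.3% of all tested genes. Gbx2, Klf4, Klf5 and Tfcp2l1 are also on the list of LIF targets. On the same arrays 11 of 16 tested markers of extraembryonic endoderm fell as well, with values given further on. Fbxo15, an F-box gene expressed in ES cells, read 721 and 651 in D0.5 cells, against 2062 in ES cells (difference -1.57 ± 0.131, limma adjusted p = 4.45e-09). Tbx3, a T-box factor of this network, read 280.2 and 284 in D0.5 cells, against 812 in ES cells. Klf2, the third Krüppel-like factor of the network, read 205 and 185, against 552 in ES cells. For each the ES array was about 3 times as bright as either D0.5 array. Tcl1, a cofactor of the AKT kinase, kept 35.0% of its ES signal, Prdm14, a repressor of FGF signalling genes, 36.7% and Jam2, a junction protein, 39.7%.

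Nanog, Esrrb and Zfp42 fell to 50.9%, 50.7% and 59.2% of their ES signal. Nanog, a homeodomain factor, read 914 and 745 in D0.5 cells, against 1629.6 in ES cells (difference -0.97 ± 0.138, limma adjusted p = 1.8e-05). Esrrb, an orphan nuclear receptor, read 238 and 229.7 in D0.5 cells, against 462 in ES cells. Zfp42 (Rex1), a widely used marker of the naive state, read 1645 and 1712 in D0.5 cells, against 2834 in ES cells (difference -0.75 ± 0.13, limma adjusted p = 0.000224). All 3 were lower on both D0.5 arrays, Nanog more so in Dox- medium. The 2 members that rose were Mkrn1, a ubiquitin ligase, by 0.60, and Slc2a3, a glucose transporter that also belongs to the glycolysis genes, by 0.51.

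Genes of pluripotency shared by the naive and primed states were mostly not called. Of 18 tested genes 1 rose, 1 fell and 16 were not called, with a median difference of 0.16. This called share, 11.1%, was near the 13.3% of all tested genes. Pou5f1 (Oct4), the POU factor needed in both states, read 2724 and 2614 in D0.5 cells, against 2263 in ES cells (difference 0.24 ± 0.132, limma adjusted p = 0.273). Sox2, its partner on DNA, read 2422 and 2822 in D0.5 cells, against 2582 in ES cells (difference 0.02 ± 0.137, limma adjusted p = 0.957). The ES value of Sox2 lay between the D0.5 values. Epcam, an epithelial adhesion molecule, rose by 0.96 and Eras, a constitutively active RAS of ES cells, fell by 0.59.

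**Figure D2:**
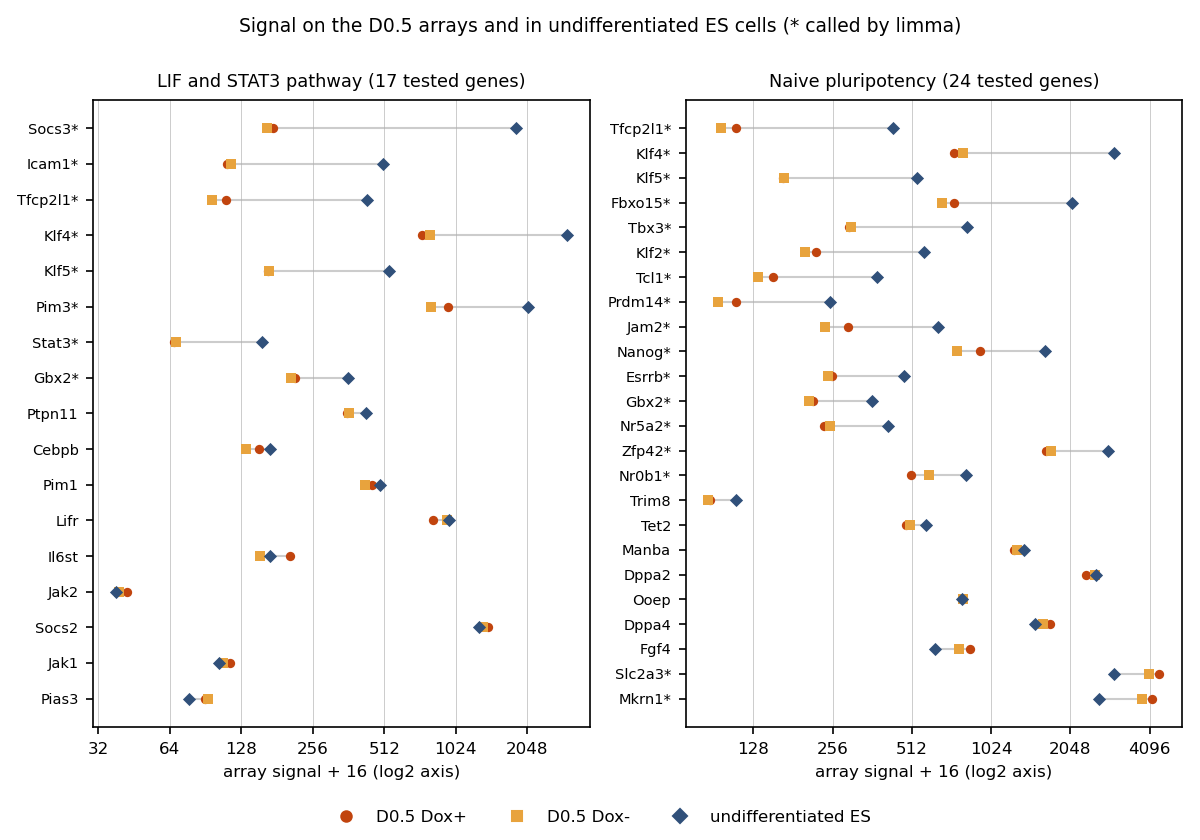
Signal + 16 on a log2 axis for the tested genes of the LIF and STAT3 pathway (left) and of naive pluripotency (right), with 1 point per array for D0.5 Dox+, D0.5 Dox- and undifferentiated ES cells, and an asterisk on genes called by limma. The D0.5 points lie to the left of the ES point for Socs3, Icam1, Klf4 and most naive genes, and the points of Jak1, Socs2, Pim1 and Lifr lie close together.

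Immediate early and serum response genes, which cells induce within minutes of stimulation, did not share 1 direction. Of 22 tested genes 3 rose, 4 fell and 15 were not called, with a median of -0.04, and 13 listed genes did not pass the signal filter. The called share was 31.8%, against 13.3% of all tested genes. Fos kept 12.4% of its ES signal (difference -2.49 ± 0.19, limma adjusted p = 1.1e-09). Egr1, an ERK-induced zinc-finger factor, read 485 and 513 in D0.5 cells, against 771 in ES cells (difference -0.61). The orphan receptor gene Nr4a1 fell by 0.66, and Cited2, a binding partner of the coactivators CBP and p300, fell by 0.56. Gadd45g, a growth arrest gene, went the other way, at 331 and 337 in D0.5 cells, against 40.8 in ES cells (difference 2.62 ± 0.156, limma adjusted p = 1.8e-11). Klf6, a Krüppel-like factor, rose by 0.65 and Myc, a growth-promoting factor, by 0.55. Ier2, another immediate early gene, differed by -0.23 and Jund, an AP-1 subunit, by 0.19, and neither was called.

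Most tested genes of the formative and primed epiblast rose. Of 27 tested genes 20 rose, 1 fell and 6 were not called, 12 were at least 2-fold higher on both arrays, and the median difference was 0.88. In all 77.8% were called, against 13.3% of all tested genes. Lef1 differed by 2.83 ± 0.154 (limma adjusted p = 4.75e-12) and Otx2 by 2.61 ± 0.133 (limma adjusted p = 1.81e-12). Pou3f1 (Oct6), a POU factor of the post-implantation epiblast, read 336 and 430.3 in D0.5 cells, against 41.7 in ES cells (difference 2.78 ± 0.165, limma adjusted p = 1.8e-11). The ES array was dim for this gene, and both D0.5 arrays were bright. Dimmer probe sets of Lef1 and Pou3f1 gave smaller differences, of 1.4 and 1.44. Grhl2, an activator of epithelial genes in the formative state, read 242 and 281 in D0.5 cells, against 48.2 in ES cells. Pim2, a kinase related to Pim1 and Pim3, read 202 and 262 in D0.5 cells, against 40.7 in ES cells. Both were higher in Dox- than in Dox+ medium, by less than their distance from ES cells.

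Fgf5, the classic marker of the primed epiblast, was dim at 12 hours. It read 23.7 and 25.8 in D0.5 cells, against 1.7 in ES cells, and rose by 1.20 ± 0.2 (limma adjusted p = 0.000134). On D1.5 its signal was 419.6 in Dox+ and 755 in Dox-. The D0.5 values were therefore a small part of the level a day later. Another, dimmer Fgf5 probe set gave a D0.5 minus ES difference of only 0.24. Sall2, a zinc-finger factor, Car14, a carbonic anhydrase, Sox11, a SOX factor of early neural and epiblast cells, and Fgf15, an FGF ligand, rose by 1.73, 1.83, 1.54 and 1.41. The member that fell was Ncam1, a neural adhesion molecule, at 42.6 and 48.0 in D0.5 cells, against 136 in ES cells.

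The de novo DNA methyltransferases rose together. Dnmt3a read 1610.1 and 1726 in D0.5 cells, against 398 in ES cells (difference 2.02 ± 0.13, limma adjusted p = 5.87e-11), and its 4 other probe sets gave 1.76 to 2.20. Dnmt3b read 3024 and 3123 in D0.5 cells, against 1470.4 in ES cells, and Dnmt3l, their catalytically inactive cofactor, 1134 and 1122, against 719 in ES cells. All 3 stood above the ES array in both media. Of the 9 tested genes of DNA methylation these 3 rose and 0 fell, a called share of 33.3% against 13.3% of all tested genes. Dnmt1, the maintenance methyltransferase, read 1212 and 1052 in D0.5 cells, against 1072 in ES cells (limma adjusted p = 0.783), and Tet1, which oxidises methylcytosine, 1472 and 1563, against 1726 (limma adjusted p = 0.405).

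In the signalling pathways some genes moved each way, while the medians of the Wnt, FGF, BMP and Nodal lists lay between -0.18 and 0.17. The shares called were 22.7% (Wnt), 26.3% (FGF), 37.5% (BMP) and 27.8% (Nodal), against 13.3% of all tested genes. Of 22 tested Wnt genes 4 rose and 1 fell, with a median of 0.05. The receptor genes of the Frizzled family parted. Fzd7 read 976 and 1069 in D0.5 cells, against 380.0 in ES cells, while Fzd5 read 356 and 358, against 887 in ES cells. Fzd7 thus rose by 1.39 and Fzd5 fell by 1.28, and Fzd2, dim on all 3 arrays, rose by 1.75. Axin2, a target of canonical Wnt signalling and its inhibitor, differed by 0.05 and was not called (limma adjusted p = 0.912).

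Of 19 tested genes of FGF signalling and ERK feedback, 4 rose and 1 fell. Dusp4, a nuclear phosphatase of MAP kinases, read 154 and 178 in D0.5 cells, against 21.4 in ES cells (difference 2.28 ± 0.177, limma adjusted p = 1.44e-09). Dusp6, the ERK phosphatase, rose by only 0.41, and the feedback inhibitor Spry4 read 317 and 488 in D0.5 cells, against 458 in ES cells, with the ES value between the media. Of the 19 genes 3 were at least 2-fold higher on both arrays, namely Dusp4, Fgf15 and Fgf5. The list as a whole hence did not share the change of Dusp4.

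In the transforming growth factor beta family, Bmp4, the ligand that supports naive self-renewal together with LIF, read 60.5 and 51.1 in D0.5 cells, against 312 in ES cells (difference -2.19 ± 0.174, limma adjusted p = 1.92e-09). Of 16 tested BMP pathway genes 2 rose and 4 fell. Id1, a BMP-induced inhibitor of bHLH factors, fell by 0.82, while its relative Id2 rose by 0.78 and the receptor gene Bmpr2 by 0.69. Of 18 tested Nodal pathway genes 3 rose and 2 fell. Inhbb, a subunit of activin B and inhibin B, read 210.0 and 187 in D0.5 cells, against 837 in ES cells (difference -1.99 ± 0.143, limma adjusted p = 4.15e-10). Skil, a repressor of SMAD proteins, read 1863 and 1940.0 in D0.5 cells, against 795 in ES cells. The ligand gene Nodal read 400.1 in Dox+ and 610.3 in Dox-, against 618 in ES cells, and was not called (limma adjusted p = 0.256).

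Most tested glycolysis genes rose, and 8 of the 18 tested hypoxia response genes did. Called in either direction were 61.1% (glycolysis) and 50% (hypoxia), against 13.3% of all tested genes. Of 18 tested glycolysis genes 11 rose and 0 fell, with a median difference of 0.52, although only 1 was 2-fold higher on both arrays. That gene was Tpi1, triosephosphate isomerase, at 1975 and 1875 in D0.5 cells, against 868 in ES cells (difference 1.13 ± 0.129, limma adjusted p = 6.43e-07), and its other probe sets gave 1.11 and 1.14. Aldoa, an aldolase, rose by 0.72, Slc2a1, the glucose transporter GLUT1, by 0.65, Pgk1, phosphoglycerate kinase, by 0.55 and Pfkfb3, which makes an activator of phosphofructokinase, by 1.02. The last, a call lost when probe sets were averaged (limma adjusted p = 0.0969), differed between the media, at 37.1 in Dox+ and 82.2 in Dox-, against 19.6 in ES cells.

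Of 18 tested hypoxia response genes 8 rose and 1 fell, 4 were at least 2-fold higher on both arrays, and the median was 0.43. Egln3, a prolyl hydroxylase that marks HIF proteins for degradation, read 317 and 342 in D0.5 cells, against 44.5 in ES cells (difference 2.51 ± 0.157, limma adjusted p = 4.04e-11). Bnip3, a mitophagy receptor, read 1288 and 1417 in D0.5 cells, against 250.2 in ES cells (difference 2.36 ± 0.132, limma adjusted p = 6.57e-12). Ddit4 (REDD1), an inhibitor of the growth kinase mTORC1, read 564 and 613 in D0.5 cells, against 169.9 in ES cells. For all 3 the D0.5 arrays were close to each other and more than 3 times the ES value. Adm, the peptide adrenomedullin, rose by 1.53 and Ndrg1, a stress-induced gene, by 0.99. Vegfa, the vascular growth factor, differed by 0.13 (limma adjusted p = 0.739), Hif1a, the oxygen-regulated factor, by 0.05 (limma adjusted p = 0.867), and Kdm3a, a histone demethylase, fell by 0.58. Oxygen is not mentioned in the labels used here.

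The core of the hypoxia response element, ACGTG, is in capitals here in Bnip3 (chr7:138909507-138909756, minus strand), Egln3 (chr12:54203875-54204124, minus strand) and Ddit4 (chr10:59951771-59952020, minus strand). It begins 229 bases before the start of Egln3 and 187 before that of Ddit4. In Bnip3 it occurs on both strands in overlap, from 108 bases before the start.
Bnip3: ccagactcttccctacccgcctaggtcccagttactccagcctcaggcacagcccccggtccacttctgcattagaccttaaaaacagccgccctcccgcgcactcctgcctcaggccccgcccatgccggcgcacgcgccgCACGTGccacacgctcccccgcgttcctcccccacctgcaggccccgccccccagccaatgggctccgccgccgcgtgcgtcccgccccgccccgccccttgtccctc
Egln3: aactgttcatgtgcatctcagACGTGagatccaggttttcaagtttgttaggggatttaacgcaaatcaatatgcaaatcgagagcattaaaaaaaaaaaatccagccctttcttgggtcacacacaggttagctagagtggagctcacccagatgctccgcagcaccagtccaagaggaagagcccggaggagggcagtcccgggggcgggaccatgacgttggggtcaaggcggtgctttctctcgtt
Ddit4: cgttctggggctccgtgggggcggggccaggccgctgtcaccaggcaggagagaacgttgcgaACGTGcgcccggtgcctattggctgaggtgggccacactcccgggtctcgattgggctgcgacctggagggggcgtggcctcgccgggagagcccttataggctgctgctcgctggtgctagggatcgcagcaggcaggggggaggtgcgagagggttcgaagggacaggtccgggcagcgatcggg
This short motif was in 22 of 78 genes with a promoter among those 2-fold higher (28.2%) and in 14 of 59 among those 2-fold lower (23.7%). It was in 18.5% of all 27025 genes with a promoter, whether tested here or not. It was common in each of these sets.

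**Figure D3:**
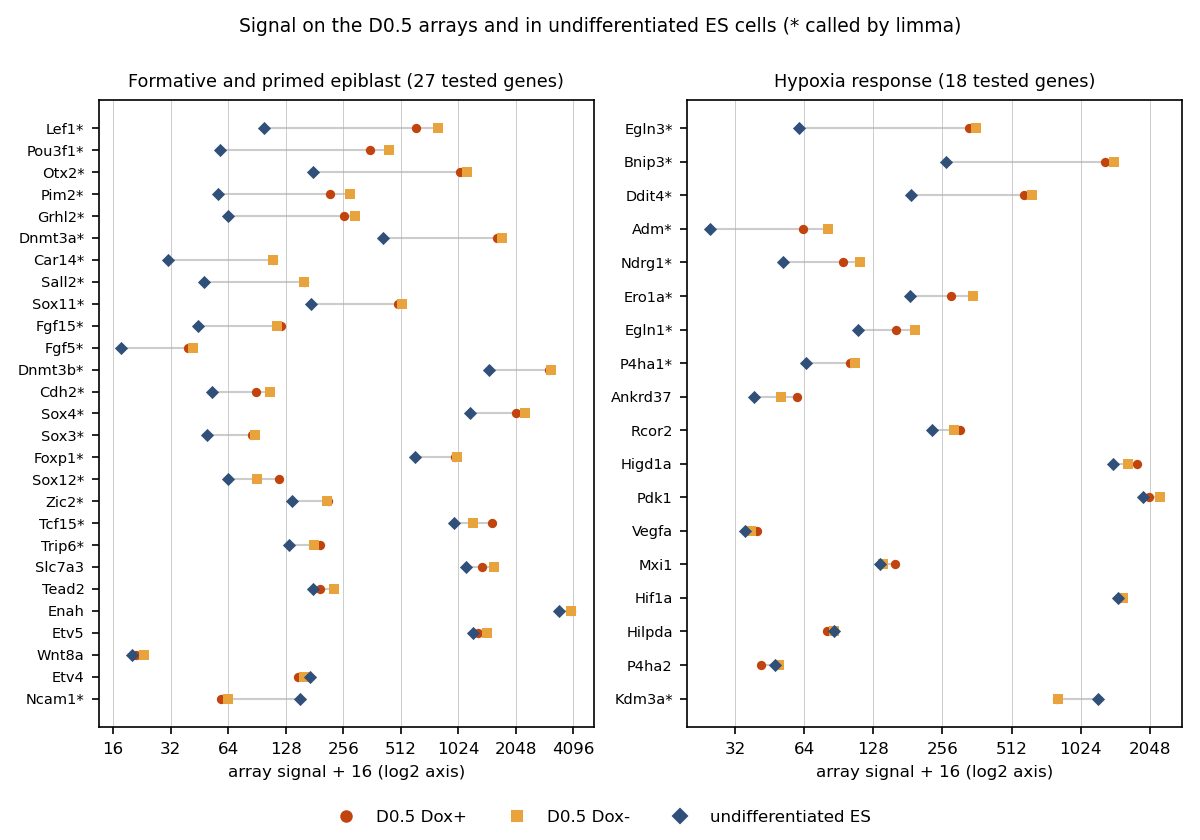
Signal + 16 on a log2 axis for the tested genes of the formative and primed epiblast (left) and of the hypoxia response (right), with 1 point per array for D0.5 Dox+, D0.5 Dox- and undifferentiated ES cells, and an asterisk on genes called by limma. Both D0.5 points lie to the right of the ES point from Lef1 to Trip6 and from Egln3 to P4ha1, while Ncam1 and Kdm3a lie to its left.

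In 4 other metabolic and stress lists the medians lay between -0.22 and 0.07. The shares called were 21.7% (sterol), 21.1% (fatty acid), 19.2% (ATF4 targets) and 16.7% (p53 targets), against 13.3% of all tested genes. Of 23 tested genes of sterol synthesis and uptake 5 fell and 0 rose, with a median of -0.22. Ebp, a sterol isomerase, read 165 and 125 in D0.5 cells, against 326 in ES cells, and Fdps, which makes farnesyl diphosphate, fell by 0.62. Abca1, a cholesterol exporter, fell by 1.07. This call and that of Fdps were lost when all probe sets of a gene were averaged (limma adjusted p = 0.119 and 0.253). Hmgcs1, an HMG-CoA synthase, differed by -0.08 and was not called. Of 19 fatty acid genes 1 rose, the acyl-CoA ligase Acsl4 (by 1.09), and 3 fell. Among these Cpt1a, which moves fatty acids into mitochondria, fell by 0.67. Of 26 tested ATF4 targets 3 rose and 2 fell, and among them Trib3, a pseudokinase of the stress response, fell by 1.03 while Stc2, stanniocalcin 2, rose by 0.92. Among 18 p53 targets Pmaip1 (Noxa), a pro-apoptotic protein, rose by 1.42 and 2 others fell.

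Cell cycle and growth genes hardly took part. Of 28 tested DNA replication genes 0 were called in limma (6 at an unadjusted p under 0.05, median -0.04), of 21 mitosis genes 1 rose, and of 28 genes of Myc function and ribosome biogenesis only Myc itself rose. Among 13 G1 genes Ccnd2, a D-type cyclin, rose by 0.86 and Cdkn1c, the CDK inhibitor p57, by 1.24. The call of Ccnd2 was lost when probe sets were averaged (limma adjusted p = 0.0517). The shares of called genes in these 4 lists were near or under the 13.3% of all tested genes. By contrast, of 30 tested actin, SRF and YAP genes 7 rose and 4 fell, a called share of 36.7%. Cnn2, a calponin, rose by 1.08, while the intermediate filament gene Vim read 1158 and 1420.3 in D0.5 cells, against 2811 in ES cells (difference -1.12).

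**Figure D4:**
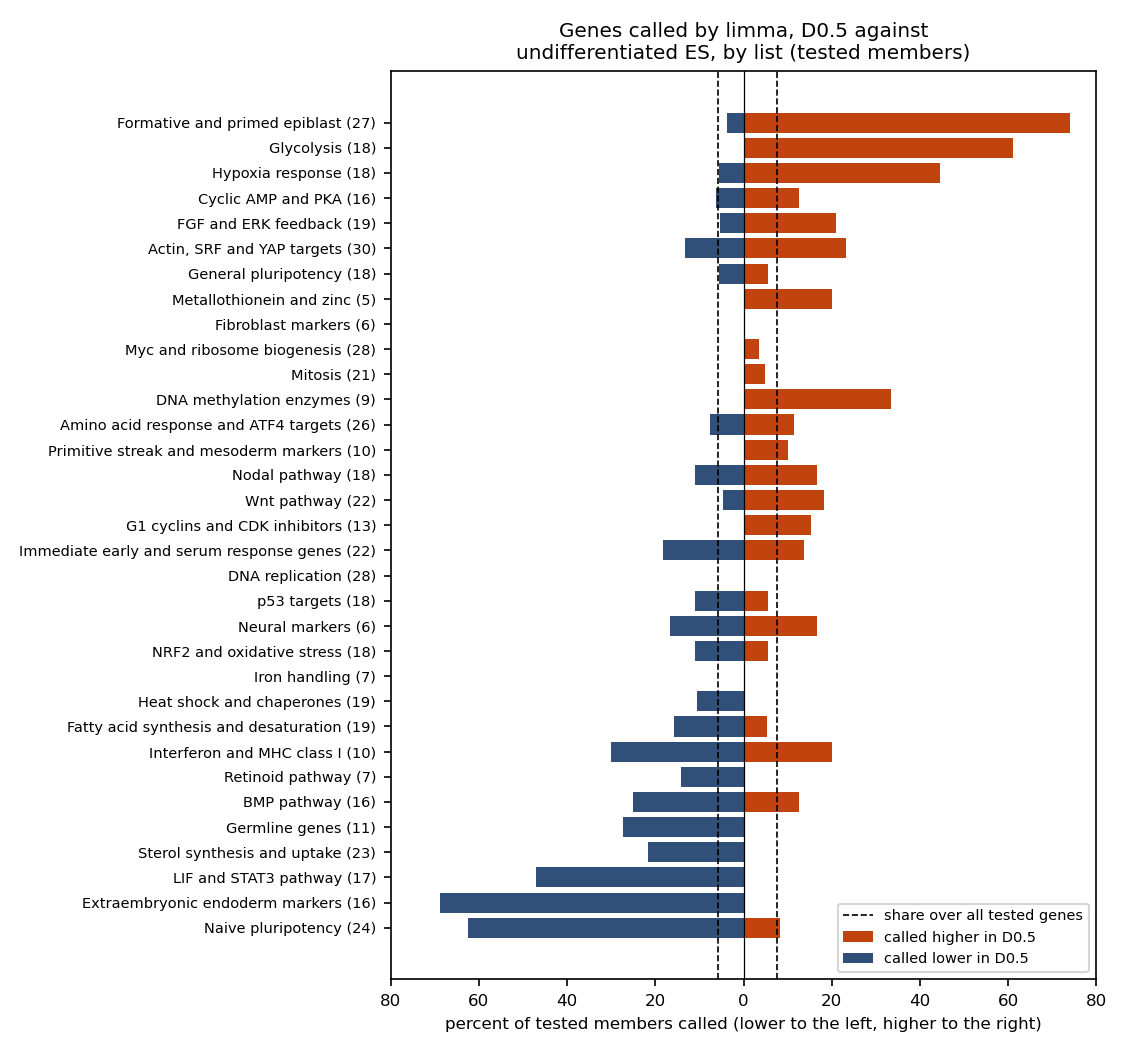
Percent of the tested members of each gene list called by limma as higher in D0.5 cells (bars to the right of 0) or lower (bars to the left), ordered by the list's median difference, with the number of tested members in brackets and dashed lines at the shares over all tested genes (7.53% higher, 5.77% lower). The longest bars to the right belong to the formative and primed epiblast, and the longest to the left to extraembryonic endoderm markers and naive pluripotency.

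Several of the genes furthest from their ES level belong to none of these groups. Lower in D0.5 cells, Trh, thyrotropin-releasing hormone, read 42.5 and 41.9, against 298 in ES cells. Lgals3, galectin-3, read 90.8 and 69.0 in D0.5 cells, against 479 in ES cells, and Pros1, the anticoagulant protein S, 50.0 and 48.4, against 289. The 3 genes were bright on the ES array and dim on both D0.5 arrays. Prr13 and Lrrc34, for which no role is given here, differed by -2.66 and -2.53, Kdelr3, a receptor that returns proteins to the endoplasmic reticulum, by -2.19, and Htra1, a secreted protease, by -2.08. All 4 fell. Gfra2, a co-receptor of neurturin, read only 0.9 and 2.9 in D0.5 cells, against 65.3 in ES cells.

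Higher in D0.5 cells, Phf21a, a subunit of a histone demethylase complex, read 641 and 653, against 136 in ES cells. Efnb2, the ephrin-B2 ligand, read 437 and 454 in D0.5 cells, against 98.1 in ES cells, and Myb, a factor of blood and other progenitors, 166 and 158, against 28.7. In each the media differed little beside the distance to ES cells. Ms4a4d, of the membrane-spanning MS4A family, rose by 2.49 and Prtg (protogenin), a cell-surface protein of the immunoglobulin superfamily, by 1.87.

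Markers of another cell type moved with these groups. Of 16 tested markers of extraembryonic endoderm, the yolk sac lineage that ES cultures can hold, 11 fell and 0 rose, with a median of -0.69. The called share was 68.8%, against 13.3% of all tested genes. Summed over the list, the signal was 1576 and 1546 in D0.5 Dox+ and Dox- cells, against 2784 in ES cells. Lama1, a laminin chain, read 18.1 and 16.5 in D0.5 cells, against 136 in ES cells, and Nid1, the basement membrane protein nidogen, 248 and 260.0, against 652. These matrix genes fell clearly. Of the factors that define the lineage, Gata6 read 15.3 and 24.0 in D0.5 cells, against 45.0 in ES cells, and Sox17 6.1 and 2.3, against 27.1. Gata4, at 10.2 and 3.5 against 6.7 in ES cells, and Afp, Hnf4a and Ttr, all under 20 on these 3 arrays, were not tested. The part of such cells in the fall of the naive and LIF genes was not tested.

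Markers of the remaining lineages were dim or mixed. Called shares were 75% (trophoblast), 10% (primitive streak and mesoderm), 33.3% (neural) and 0% (fibroblast), against 13.3% of all tested genes. Of 4 tested trophoblast markers 2 fell and 1 rose. The largest fall was that of Tfap2c, the AP-2 gamma factor that germ cells and naive ES cells also express, at 34.9 and 41.3 in D0.5 cells, against 263 in ES cells, while Cdx2, a defining trophoblast factor, read at most 13.9 on the 3 arrays. Of 10 tested primitive streak and mesoderm markers 1 rose, the T-box gene Eomes, at 52.7 and 65.9 against 30.4 in ES cells, and Mixl1, Mesp1 and Evx1 stayed under 14 on all 3 arrays. Of 6 neural markers 1 rose and 1 fell. Sox1 rose by 0.55, a call lost when probe sets were averaged (limma adjusted p = 0.166). Gbx2, which is also on the naive and LIF lists, fell by 0.77. Of 6 tested fibroblast markers 0 were called in limma, with 2 at an unadjusted p under 0.05, and the fibroblast collagen genes Col1a1 and Col3a1 read under 5.

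Few genes parted the media at 12 hours. Prkaca, the catalytic subunit of PKA, read 467 and 555 in D0.5 Dox+ and Dox- cells, against 511 in ES cells, and the sources used here do not say whether its probes detect the introduced kinase. Of 16 tested genes of cyclic AMP and PKA, 2 rose and 1 fell, a called share of 18.8% against 13.3% of all tested genes. Of the 10 genes 2-fold apart between the D0.5 arrays, 8 were higher in Dox- and 2 in Dox+. Rad21, a cohesin subunit, read 844 in Dox+ and 1943 in Dox-, against 2099 in ES cells, so only the Dox+ array stood apart. With 1 array per medium these gaps carry no test.

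The later arrays show which of the early changes lasted, as a description that shares the ES and D0.5 arrays. Of the 100 genes that were 2-fold higher on both D0.5 arrays, 78 were still 2-fold above ES cells on both D1.5 arrays, and 26 had moved a further 2-fold up from D0.5 on both. Of the 80 that were 2-fold lower, 62 were still 2-fold below ES cells on both D1.5 arrays and 25 had moved a further 2-fold down. Klf4 had reached 110.3 and 55.3 on the D1.5 Dox+ and Dox- arrays, and Tfcp2l1 27.9 and 17.1. Socs3 stayed low, between 38.5 and 154 on the 6 later arrays. On D3.5, 73 of the higher genes were still 2-fold above ES cells in Dox+ and 53 in Dox-, and 63 and 55 of the lower genes were still 2-fold below. Over all tested genes 258 (2.96%) were 2-fold higher and 169 (1.94%) 2-fold lower on both D1.5 arrays than on the D0.5 array of the same medium.

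A few genes had returned 2-fold by D1.5 in both media, 7 in all (0.0803%). Samd9l, an interferon-induced gene, read 335 and 317 on D0.5, against 107 in ES cells, and 29.3 and 8.6 on D1.5. Cdkn1c read 405 and 428 on D0.5, against 167 in ES cells, and 185 and 143 on D1.5. Samd9l was above its ES level on the D0.5 arrays and below it on all 6 later ones. Cdkn1c was near or below its ES level on D1.5 and read 615.9 on D3.5 Dox-, above both D0.5 values, and 64.9 on D3.5 Dox+. Prm1, a protamine gene, and Vwc2, a secreted BMP antagonist, also returned from a higher level. From below returned Trh, Apoe, the apolipoprotein, and Hes1, a Notch target that read 54.4 and 50.7 on D0.5, against 134 in ES cells, and 166 and 122 on D1.5. Dll1, a Notch ligand, went the opposite way at 12 hours, at 72.1 and 85.4 on D0.5, against 19.4 in ES cells.

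**Figure D5:**
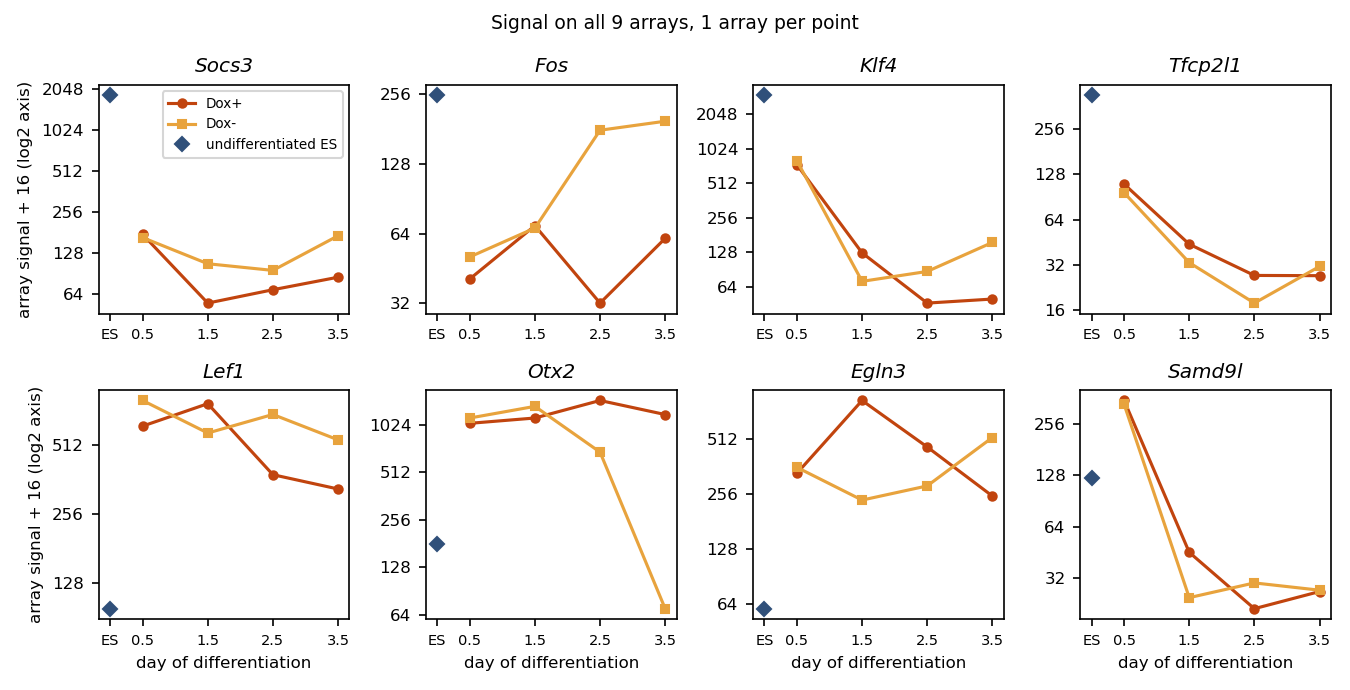
Signal + 16 on a log2 axis against day of differentiation for 8 genes, with 1 array per point, undifferentiated ES cells (ES) at the left of each panel and lines joining the Dox+ and the Dox- arrays. Socs3, Klf4 and Tfcp2l1 are low from day 0.5 on, Lef1 and Egln3 stay above the ES level, and Samd9l is above it only at day 0.5.

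The thresholds left close neighbours on either side. The smaller of the 2 differences was 1.002 for Sesn3 and 1.007 for Rragd, just inside the 2-fold rule, and 0.998 for Celf2 and 0.993 for Acot1, just outside it. On the lower side Jdp2 and Kat6b, at -1.004 and -1.021, were inside, and Prph and Esyt1, at -0.995 and -0.991, outside. The ES signal was under 50 for 53 of the 100 higher genes, and both D0.5 signals were under 50 for 17 of the 80 lower genes, so the size of these changes rests on dim readings. Another probe set past the filter existed for 72 of the 180 genes, and for 71 of them all such probe sets had the same sign. For only 45 of the 72 was at least 1 other probe set also 2-fold apart the same way on both arrays.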

How the data were processed

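RNA of 9 samples was measured on Affymetrix mouse arrays, 1 array per sample. Groups come from the labels. The authors deposited 1 table of intensity values on a linear scale, made with GCOS, Affymetrix's array software, per the submitters' processing notes. The sources used here give neither its version nor the background correction. Scaling to an average of 100 is named in the labels, and the mean without the top and bottom 2% was 100 on every array.

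Of 45101 probe sets, 34958 have 1 gene symbol in the platform annotation and 932 have several. The brightest such probe set over the 9 arrays stood for each of 18194 genes. Signals were used without further normalization, as log2(signal + 16), and the 8717 genes that reached 50 on 2 or more arrays were tested. limma (version 3.58.1, R 4.3.3; lmFit and eBayes, trended prior) compared 2 D0.5 arrays with 1 ES array on 1 residual degree of freedom (median prior degrees of freedom 22.6). The threshold was 0.05 after Benjamini-Hochberg adjustment. On simulated data with 100 of 8717 genes changed at each size, log2 changes of 1 and 2 were recovered for 100%, with 9 false calls. The simulated arrays had equal spread in both groups, which the real ES array cannot show. That spread was taken from this same fit, so the recovery does not test whether it is right.

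The members and gene lists were chosen with earlier results of these data known. Named are 12 genes always given (Socs3, Fos, Lef1, Otx2, Stat3, Klf4, Pou5f1, Nanog, Sox2, Zfp42, Fgf5, Prkaca), the 15 genes furthest up and down, up to 4 members of each list, the 5 genes furthest apart between the D0.5 arrays each way, and genes that returned on D1.5. Other named genes were chosen after their values were seen. Promoters and gene names came from RefSeq (GRCm38.p6). Scaling, filter, pseudocount, probe set choice, the trend, a fit of all 9 arrays and the loss of each D0.5 array were tried as alternatives.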

Additional observations from a re-analysis of the deposited data

Results flagged for a closer look

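For 1782 of the 8717 tested genes the D0.5 arrays lay on opposite sides of the ES array. Among the 163 named genes 10 did so, and 6 of these were at least 0.2 from it on the log2 scale on each D0.5 array. These values compare single arrays, and the difference was not tested. Relative to ES cells, on the log2(signal + 16) scale, Wwc1 differed by 0.20 in D0.5 Dox+ and -0.69 in D0.5 Dox-. Another Wwc1 probe set past the filter was lower on both arrays, by -0.55 in D0.5 Dox+ and -0.68 in D0.5 Dox-. Frzb, a secreted Wnt antagonist, differed by 0.49 in D0.5 Dox+ and -0.40 in D0.5 Dox-, and Tmed3 by 0.43 and -0.44. Nlgn2, a synaptic adhesion protein, differed by -0.28 in D0.5 Dox+ and 0.95 in D0.5 Dox-, Lztr1 by -0.74 and 0.47, and Igfbp5, a binding protein of insulin-like growth factors, by -0.74 and 0.40. Groups of 1 and 2 arrays are too small for a check on outlying samples.

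Probe sets without a single gene symbol were left out of the comparison and also changed. Of the 460 with several symbols that passed the signal filter, 5 were higher and 1 lower by 2-fold or more on both D0.5 arrays. Of the 1157 unnamed here that passed it, 36 were higher and 6 lower by the same rule.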

How the results depend on the processing

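The number of genes called by limma (1159) fell to 0 in the fit of all 9 arrays, with 733 at an unadjusted p under 0.05, and to 0 to 0 in that fit when either D0.5 array was left out (632 without Dox+ and 568 without Dox-). With no filter on low signal it was 0 as well. Under the other planned settings it was 1013 to 1214, and 1406 with the filter added after the data were seen. Of the 1159 genes, 984 were also called under quantile normalization and 821 with the mean of all probe sets. The number of genes at least 2-fold apart on both arrays (180) was 336 with a pseudocount of 1 (210 higher, 126 lower), 91 with a pseudocount of 64 (40 higher, 51 lower) and 113 with the mean of all probe sets. It was 235 with no filter (104 higher, 131 lower) and 208 with the added filter (86 higher, 122 lower). Leaving out 1 D0.5 array gave 238 to 250. The median of the retinoid list was 0.01 with no filter, against -0.18. Other list results shifted too. With the mean of all probe sets 14 were marked as moved and 20 as the same, and with a pseudocount of 64, 13 and 21. These counts were 11 and 22 with no filter, 10 and 24 under quantile normalization and 5 and 29 under median centring. With a pseudocount of 1, or without either D0.5 array, they were 9 and 25. Every call of a named gene was lost in the settings that called 0 genes. Among the other settings, the mean of all probe sets changed the most calls of the 163 named genes, with 10 lost and 5 gained. The 10 named genes with D0.5 arrays on opposite sides of the ES array were not called. The sign of each depended on which D0.5 array was left out. The cause of these shifts was not tested. Precision is limited by single arrays and by dim signals, whose log2 differences depend on the pseudocount. No paired analysis was possible because each group is 1 array.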

Other observations

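The signal filter removed further genes that were bright on the ES array alone, named here after their values were seen and without a test. Bcl3, an IkB-family protein and a known target of STAT3, read 8.0 and 10.9 in D0.5 Dox+ and Dox- cells, against 164 in ES cells. Spink1, a secreted protease inhibitor, read 8.4 and 11.1 in D0.5 cells, against 185 in ES cells, and Mras, a RAS-family GTPase, 39.9 and 30.5, against 292. All 3 were at least 4-fold lower in D0.5 cells on both media. Interferon-related genes were among them too. Xaf1 read 5.1 and 2.8 in D0.5 cells, against 103 in ES cells, Oas1a 40.2 and 32.2, against 118, and Ddx58, which encodes the RNA sensor RIG-I, 36.6 and 49.7, against 149.

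Of the 10 tested genes of interferon response and MHC class I, 3 fell and 2 rose. Ifitm3, an antiviral membrane protein, read 422 and 369.8 in D0.5 cells, against 904 in ES cells, and Ifitm1 and Ifitm2 fell too. Bst2 (tetherin), another antiviral membrane protein, read 347 and 340.3 in D0.5 cells, against 152 in ES cells. The list thus held changes in both directions. Of 11 tested germline genes 3 fell and 0 rose, among them Sycp3, a component of the meiotic synaptonemal complex, at 325 and 337 in D0.5 cells, against 663 in ES cells, and Hormad1, a meiotic chromosome protein, at 48.4 and 61.2, against 122. Of 19 tested heat shock and chaperone genes 2 fell, with Hspa1b, an inducible HSP70, at 330.2 and 408 in D0.5 cells, against 675 in ES cells. Of 18 genes of NRF2 and oxidative stress 1 rose and 2 fell, and Sod2, the mitochondrial superoxide dismutase, fell by 0.67. Of 7 tested genes of the retinoid pathway 1 fell, of 7 iron genes 0 were called in limma (1 at an unadjusted p under 0.05), and of 5 genes for metallothioneins and zinc Mt2 rose by 0.64. Called shares were 50% (interferon), 27.3% (germline), 10.5% (heat shock) and 16.7% (NRF2), against 13.3% of all tested genes. They were 14.3% (retinoid), 0% (iron) and 20% (metallothioneins and zinc). Dnajb1, the other heat shock gene that fell, and Tkt, the NRF2 gene that rose, lost their calls under quantile normalization and when probe sets were averaged.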
